A study of Homo sapiens with 6 samples.

Results

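The 34 genes described here encode proteins that carry cells from G2 through mitosis, and they were followed in RNA sequencing of MDA-MB-231 cells with and without a knockdown of CALR. MDA-MB-231 is a human cell line from a triple-negative breast cancer, and CALR encodes calreticulin, which binds calcium and helps proteins fold in the endoplasmic reticulum. The members are the rows of the deposited read count table whose symbol is on a fixed list of 34 mitotic genes. All 34 were found among 31582 genes, and all 34 were among the 16394 genes tested. One group was MDA-MB-231-shCALR, which carries a short hairpin RNA against CALR (labelled CALR knockdown, 3 libraries), and the other was MDA-MB-231-NTC (labelled control, 3 libraries). Both lines grew in DMEM with serum and were harvested before confluence, and strand-specific libraries were prepared from their polyadenylated RNA. The labels name neither the hairpin sequence nor separate infections, clones or cultures, so p-values measure only the spread between these libraries, part of which may be technical.

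Entry into mitosis is driven by CDK1 bound to A- and B-type cyclins, followed by the Polo and Aurora kinases, which build the spindle and attach chromosomes to it. The spindle checkpoint holds back the anaphase-promoting complex until every chromosome is attached, and the complex then marks cyclin B and securin for destruction. Transcription of these genes peaks late in the cell cycle under MuvB complexes with B-MYB and FOXM1, and is silenced in resting cells by the MuvB complex named DREAM. In RNA from a whole culture, fewer dividing cells and less RNA per dividing cell cannot be told apart.

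CALR, the targeted gene, was at 493, 66.4 and 110.1 CPM (counts scaled to library size with TMM factors) in the knockdown libraries, replicates 1 to 3 in order, and 1213, 979 and 926 CPM in the control libraries. It was lower in all 3 knockdown libraries, at 47.5%, 6.39% and 10.6% of the control mean.

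Most of the 34 genes lay higher in the knockdown than in the control libraries, but 0 passed the adjusted threshold and the libraries of each group were far apart. A log2 fold change above 0 was found for 27 members, with a median of 0.42 against −0.00072 over all genes tested, where 49.9% were positive. At an unadjusted p under 0.05 in edgeR's quasi-likelihood test, 9 members (26.5%) were higher and 0 lower in knockdown. Over all genes tested the same rule called 8.17% higher and 7.36% lower. The 9 genes were PLK1, KIF20A, CCNB1, BUB1, PTTG1, AURKA, CDC20, KIF2C and AURKB, with log2 fold changes from 0.55 to 0.92. Their adjusted p-values from edgeR lay between 0.225 and 0.304, and over all genes 0% passed the adjusted threshold of 0.05. All 3 knockdown libraries lay above all 3 controls for only 3 members, CDC20, KIF2C and PTTG1 (8.82%), where 11.3% of all genes tested did so. With library size alone as scaling 0 members were apart in this way, against 7.25% of all genes tested, and on the deposited FPKM scale CDC20 and PTTG1 were, against 7.37%.

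The order of the libraries in the mitotic genes was not that in CALR. As the median over the 34 genes of log2 CPM minus the control mean, knockdown replicates 1, 2 and 3 stood at 0.77, 0.42 and −0.29, and control replicates 1, 2 and 3 at 0.42, −0.21 and −0.18. The members were thus highest in the knockdown library with the most CALR left, and control replicate 1 had the same median as knockdown replicate 2. Control replicate 1 was the highest control for 33 of 34 genes. Knockdown replicate 3 was below all 3 controls for 17 genes, while replicate 2 was above the control mean for all 34 and replicate 1 for 30.

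Leaving out 1 library at a time moved the count of 9. It was 0 without knockdown replicate 1, where 5.33% of all genes tested were called higher, and 0 without control replicate 3, where 2.87% were. Without control replicate 2 it was 2 (CDC20 and PTTG1) against 3.86% of all genes. It was 15 without control replicate 1 against 6.35%, 14 without knockdown replicate 3 against 7.83%, and 11 without knockdown replicate 2 against 17.9%. The members' median log2 fold change was positive in all 6 of these fits, from 0.19 without knockdown replicate 1 to 0.65 without control replicate 1. Without knockdown replicate 2, 3 members passed the adjusted threshold in edgeR, AURKB and PTTG1 higher (0.73 and 0.81) and ECT2 lower (−1.05). In that fit 2604 of the 16783 genes tested passed, so 3 of 34 is no larger a share. Without a low-count filter 17 members were higher at the unadjusted threshold, against 6.13% of all genes, and 7 passed the adjusted threshold in edgeR, against 3.13%.

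**Figure D1:**
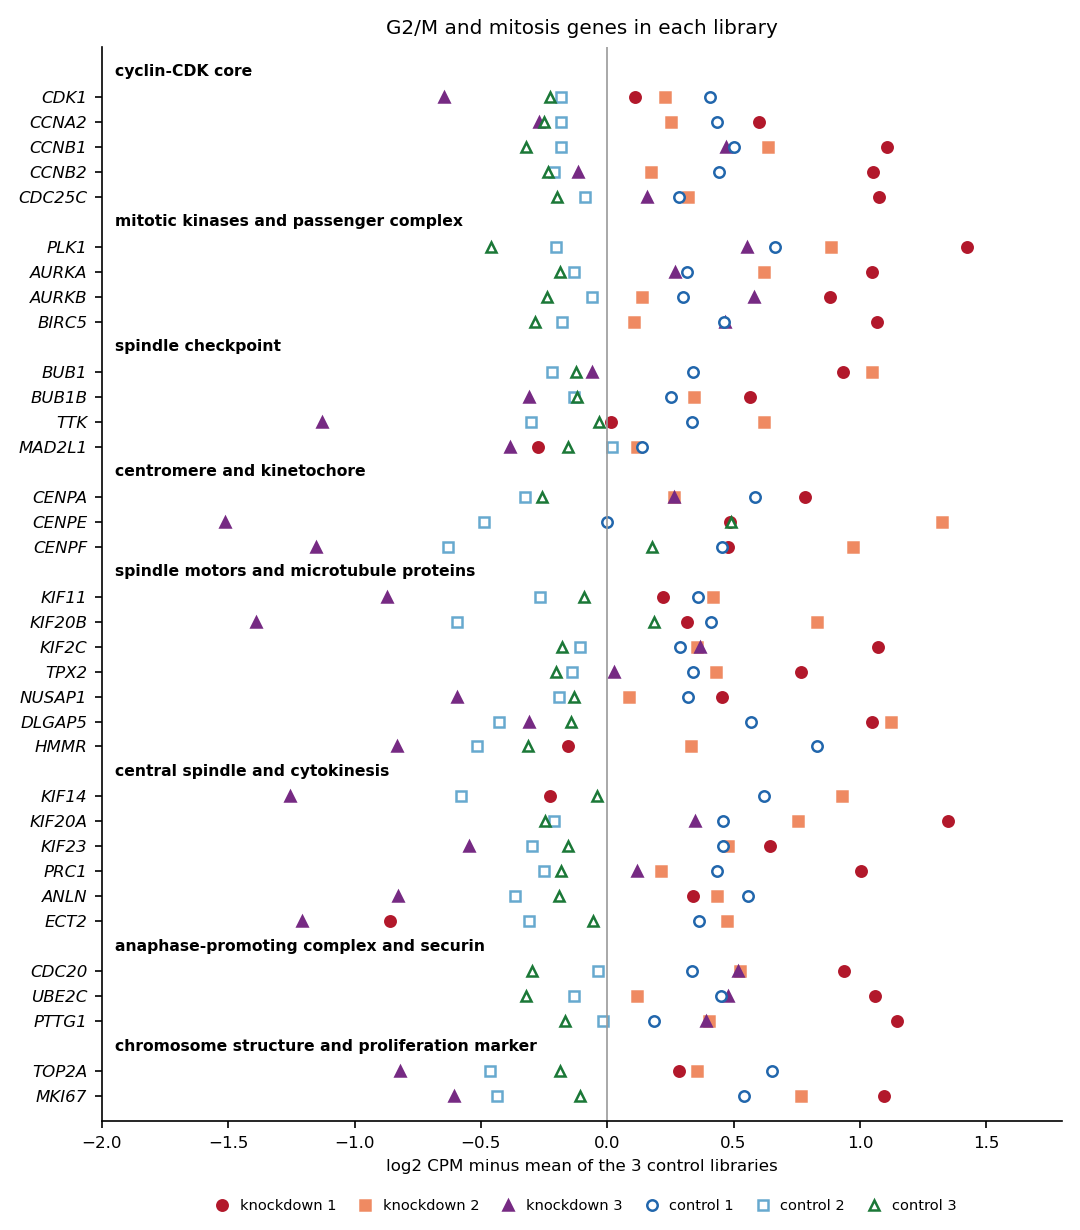
Each row is one member, grouped by role, and each point is 1 library, placed at its log2 CPM minus the mean of the 3 control libraries; filled symbols are knockdown and open symbols control. Control replicate 1 is the highest control in 33 of 34 rows, and knockdown replicate 3 is below all controls in 17.

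Promoter sequences show what the genes share apart from their protein functions. MuvB complexes bind the cell cycle homology region, searched here as TTTGAA or TTCGAA, and the factor NF-Y binds the CCAAT box, searched as CCAAT. Both were searched on both strands from 250 bases before to 50 bases after the RefSeq start (GRCh38.p14), where 29 members had 36 such windows. TTTGAA or TTCGAA was present in 69.4% of the 36 windows against 16.4% of all 35116 promoter windows, and CCAAT in 80.6% against 34.6%. Both kinds of motif were present in 61.1% of the members' windows and in 6.38% of all windows, and 2 or more CCAAT matches in 50% against 10.8%. In 1 of the 36 windows a CCAAT match overlapped a TTTGAA or TTCGAA match. The 170 bases before the start are given for 4 called members with the largest log2 fold changes (PLK1, KIF20A, CCNB1 and BUB1), and for ECT2, HMMR and CDK1, which are 3 of the 4 lowest; MAD2L1, the other one, has no match in that stretch. Where a gene has several windows the first listed is shown. Capitals mark the matches, with ATTGG as CCAAT read on the other strand.
PLK1, chr16:23678719-23678888, plus strand: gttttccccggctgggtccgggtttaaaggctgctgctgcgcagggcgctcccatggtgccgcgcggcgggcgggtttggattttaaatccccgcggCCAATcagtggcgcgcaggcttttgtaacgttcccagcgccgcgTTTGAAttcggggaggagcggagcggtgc
KIF20A, chr5:138178942-138179111, plus strand: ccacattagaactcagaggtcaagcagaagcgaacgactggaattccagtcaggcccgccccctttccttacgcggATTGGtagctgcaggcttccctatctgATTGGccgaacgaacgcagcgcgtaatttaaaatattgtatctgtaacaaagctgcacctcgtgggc
CCNB1, chr5:69166980-69167149, plus strand: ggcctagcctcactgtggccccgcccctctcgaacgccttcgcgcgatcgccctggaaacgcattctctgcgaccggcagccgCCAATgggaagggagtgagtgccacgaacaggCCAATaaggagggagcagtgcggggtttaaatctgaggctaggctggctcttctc
BUB1, chr2:110678064-110678233, minus strand: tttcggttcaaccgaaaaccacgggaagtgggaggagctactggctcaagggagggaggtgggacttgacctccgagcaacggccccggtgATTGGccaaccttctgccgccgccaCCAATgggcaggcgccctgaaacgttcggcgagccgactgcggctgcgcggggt
ECT2, chr3:172750556-172750725, plus strand: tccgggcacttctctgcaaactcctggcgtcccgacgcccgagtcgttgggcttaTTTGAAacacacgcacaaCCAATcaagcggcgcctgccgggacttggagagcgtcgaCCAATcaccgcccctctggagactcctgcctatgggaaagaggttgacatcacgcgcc
HMMR, chr5:163460462-163460631, plus strand: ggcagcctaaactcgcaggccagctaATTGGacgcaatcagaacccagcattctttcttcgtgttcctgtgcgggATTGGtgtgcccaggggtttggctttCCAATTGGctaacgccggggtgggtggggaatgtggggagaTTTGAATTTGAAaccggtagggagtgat
CDK1, chr10:60778161-60778330, plus strand: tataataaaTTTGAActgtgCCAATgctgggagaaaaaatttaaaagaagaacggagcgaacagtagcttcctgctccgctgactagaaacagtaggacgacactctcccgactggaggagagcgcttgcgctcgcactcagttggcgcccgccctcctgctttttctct
Matches were found in genes at both ends of the range of differences, but not in all members. Of the called members with a window, AURKB, CCNB1, KIF20A, KIF2C and PTTG1 had no TTTGAA or TTCGAA match. Of the other members with a window only CCNA2 and CENPE lacked it. KIF2C and CENPE had neither motif. A relation of the motifs to the differences was not tested. PLK1 has 1 CCAAT match 73 bases and 1 TTTGAA match 29 bases before its start. HMMR, near the bottom of the range, has 2 adjacent TTTGAA matches beginning 28 and 22 bases before its start and 4 CCAAT matches in the stretch, of which those beginning 69 and 66 bases before the start overlap as a palindrome. CCNB1, KIF20A and BUB1 have 2 CCAAT matches each in the stretch and none of the other motif, which says only that those letters are not there. In the whole searched window CCNB1 and KIF20A also have 0 matches of the other motif, while BUB1 has 1, just after the printed stretch.

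By level per transcript length, the members differed widely in the deposited FPKM values. The highest control means were those of UBE2C, at 99.6 ± 26.1 FPKM, and PTTG1, at 90.3 ± 8.60 (SD, n = 3), whose difference was within the replicate spread. TPX2 at 61.0 ± 11.4, CCNB1 at 58.9 ± 17.3 and CDK1 at 52.0 ± 12.0 FPKM came next, below PTTG1 by more than that spread but not apart from each other. The lowest were CENPE at 1.51 ± 0.53, KIF14 at 1.96 ± 0.77, HMMR at 2.04 ± 1.06 and KIF20B at 2.69 ± 0.86 FPKM, again not apart from each other. These 4 rest on the fewest reads, down to 132 in a library for HMMR and 166 for CENPE.

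**Figure D2:**
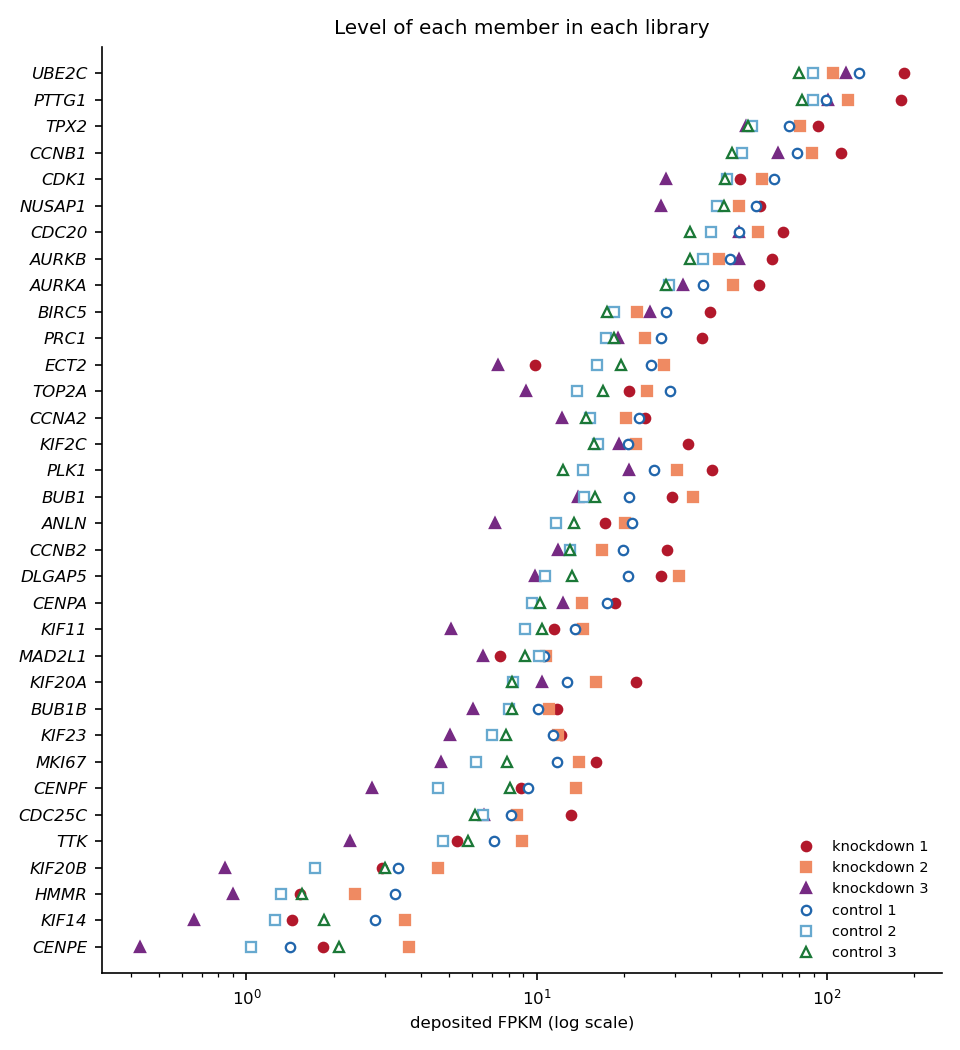
Deposited FPKM of each member in each of the 6 libraries on a log axis, sorted by the control mean; filled symbols are knockdown and open symbols control. The control means run from CENPE, at 1.51 FPKM, to UBE2C at 99.6 FPKM.

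Among the cyclin-CDK genes, cyclin B1 lay higher in knockdown and its kinase did not. CCNB1 (chromosome 5, 69167010 to 69178245, plus strand, GRCh38) was at 274, 198 and 176 CPM in knockdown and 180.2, 112 and 102 CPM in control libraries, replicates 1 to 3 in order here and for each gene that follows. Knockdown replicate 3 lay just under control replicate 1, and the other knockdown libraries lay above every control. Its log2 fold change was 0.72 ± 0.26 (SE, 3 against 3 libraries; adjusted p = 0.257 from edgeR), and 0.51 to 1.02 with 1 library left out. CDK1 (chromosome 10, 60778331 to 60794852, plus strand), the kinase that cyclin B1 activates, was at 115, 125 and 68.1 CPM in knockdown and 141, 93.9 and 91.1 CPM in control libraries. The groups overlapped, with control replicate 1 highest and knockdown replicate 3 lowest (log2 fold change −0.083 ± 0.27, and −0.24 to 0.16 with 1 library left out). CCNA2, the A-type cyclin of S and G2 phase (chromosome 4, 121816444 to 121823933, minus strand), was at 74.9, 58.7 and 40.9 against 66.6, 43.4 and 41.5 CPM. Only knockdown replicate 1 exceeded every control (0.20 ± 0.27, and −0.016 without that library). CCNB2, the other B-type cyclin of the list, had a log2 fold change of 0.42 ± 0.32, which was 0.0023 without knockdown replicate 1. The phosphatase CDC25C, which removes inhibitory phosphates from CDK1, had 0.56 ± 0.27, and 0.23 without that library. Exons of EXOSC9 on the other strand cover 9.08% of the CCNA2 exon bases and those of FAM53C 8.78% of CDC25C, and strand handling in the counting is not given in the sources used here.

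The 4 genes of mitotic kinases and the passenger complex had a median log2 fold change of 0.61. PLK1 (chromosome 16, 23677656 to 23690367, plus strand), the Polo kinase that acts from mitotic entry to cytokinesis, had the largest difference of the 34. Its values were 101, 69.6 and 55.3 CPM in knockdown and 59.6, 32.6 and 27.4 CPM in control libraries. Knockdown replicate 3 was below control replicate 1, and every other pair of libraries had knockdown above control. The log2 fold change was 0.92 ± 0.33 (adjusted p = 0.255 from edgeR), and 0.65 to 1.33 with 1 library left out. Exons on the other strand cover 12.5% of the PLK1 exon bases. AURKA (chromosome 20, 56369389 to 56392337, minus strand), the kinase of centrosomes and spindle poles, was at 179.5, 134 and 104 CPM against 108, 79.3 and 76.3 CPM. Again knockdown replicate 3 alone lay below control replicate 1 (0.66 ± 0.23, adjusted p = 0.252 from edgeR, and 0.44 without knockdown replicate 1). AURKB (chromosome 17, 8204733 to 8210600, minus strand), the kinase of the chromosomal passenger complex, was at 96.3, 57.6 and 78.2 CPM against 64.3, 50.2 and 44.3 CPM. Here it was knockdown replicate 2, not replicate 3, that lay under control replicate 1 (0.55 ± 0.23, adjusted p = 0.304 from edgeR, and 0.36 without knockdown replicate 1). BIRC5, which encodes the passenger protein survivin, had 0.56 ± 0.29, and 0.26 without knockdown replicate 1.

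The 4 spindle checkpoint genes had values of both signs. BUB1 (chromosome 2, 110637698 to 110678114, minus strand), a kinetochore kinase that recruits other checkpoint proteins, was at 120.2, 130.1 and 60.3 CPM in knockdown and 79.6, 54.1 and 57.8 CPM in control libraries. Replicates 1 and 2 of the knockdown stood above every control, and replicate 3 stood among them (0.70 ± 0.29, adjusted p = 0.304 from edgeR, and 0.50 to 0.99 with 1 library left out). BUB1B, the BubR1 component of the inhibitor that blocks CDC20, had 0.23 ± 0.24, and 0.045 without knockdown replicate 1. It shares 10.2% of its exon bases with the same-strand transcript BUB1B-PAK6. The checkpoint kinase TTK was at 22.9, 34.8 and 10.3 CPM against 28.6, 18.4 and 22.1 CPM (−0.022 ± 0.39). MAD2L1, which forms the inhibitory complex with CDC20, was at 45.99, 60.5 and 42.7 CPM against 61.2, 56.4 and 50.04 CPM (−0.17 ± 0.19). For TTK knockdown replicate 2 was the highest and replicate 3 the lowest of the 6 libraries, and for MAD2L1 knockdown replicates 1 and 3 lay below every control.

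For 2 of the 3 centromere genes, CENPE and CENPF, the knockdown libraries spanned more than the controls. CENPA (chromosome 2, 26764289 to 26801067, plus strand), the histone H3 variant that marks centromeres, was at 30.6, 21.4 and 21.4 CPM against 26.7, 14.2 and 14.9 CPM. Control replicate 1 lay above knockdown replicates 2 and 3, and the log2 fold change was 0.40 ± 0.29. The kinetochore motor CENPE was at 17.9, 32.2 and 4.45 CPM in the 3 knockdown libraries and at 12.8, 9.11 and 17.99 CPM in the controls. Its highest and its lowest value of all 6 libraries were both in knockdown, at 242% and 33.5% of the control mean. The log2 fold change of 0.45 ± 0.58 was −0.25 without knockdown replicate 2 and 0.92 without replicate 3. CENPF, a large protein of the outer kinetochore, likewise had its highest and lowest values in knockdown, at 103, 146 and 33.4 CPM against 102, 47.9 and 83.96 CPM (0.27 ± 0.47, and −0.18 without knockdown replicate 2).

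The 7 spindle motors and microtubule proteins ran from −0.27 to 0.69 in log2 fold change. KIF2C (chromosome 1, 44739818 to 44767767, plus strand), a microtubule-depolymerising kinesin of centromeres, was at 121, 73.5 and 74.2 CPM in knockdown and 70.3, 53.4 and 50.8 CPM in control libraries. The groups did not overlap on this scale (0.62 ± 0.24, adjusted p = 0.274 from edgeR, and 0.35 without knockdown replicate 1). In FPKM they did, with knockdown replicate 3 at 19.2 and control replicate 1 at 20.6. DLGAP5, which stabilises kinetochore microtubules, was at 93.5, 98.6 and 36.5 CPM against 67.1, 33.6 and 40.98 CPM (0.69 ± 0.39). TPX2, which activates Aurora A on the spindle, had 0.42 ± 0.23. KIF11, the kinesin that separates the spindle poles, had −0.0017 ± 0.32. The kinesin KIF20B had 0.12 ± 0.49 and NUSAP1, a microtubule-binding protein, 0.025 ± 0.27, so these 3 genes differed by less than their standard errors. Of the NUSAP1 exon bases 62.2% also belong to another same-strand gene, so its count is uncertain. HMMR (chromosome 5, 163460203 to 163491945, plus strand), a spindle and hyaluronan-binding protein, was at 5.68, 7.998 and 3.54 CPM against 11.3, 4.42 and 5.09 CPM, with overlapping groups (−0.27 ± 0.42, and 0.28 without control replicate 1).

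The 6 cytokinesis genes held both a high and the lowest member. KIF20A (chromosome 5, 138178719 to 138187715, plus strand), the kinesin that carries the passenger complex to the central spindle, was at 79.7, 52.9 and 39.8 CPM in knockdown and 42.96, 26.98 and 26.3 CPM in control libraries. Only control replicate 1 reached into the knockdown range, above replicate 3 (0.84 ± 0.29, adjusted p = 0.250 from edgeR, and 0.53 without knockdown replicate 1). ECT2 (chromosome 3, 172750682 to 172821474, plus strand), the exchange factor that switches on RhoA at the cleavage furrow, was at 50.9, 129 and 40.00 CPM in knockdown and 119, 74.7 and 89.03 CPM in control libraries. Knockdown replicates 1 and 3 were below every control and replicate 2 above every control (−0.36 ± 0.40, and −1.05 without knockdown replicate 2). PRC1, which bundles the central spindle, had 0.47 ± 0.28, with 57.6% of its exon bases shared with another same-strand transcript. The midzone kinesin KIF23 had 0.24 ± 0.32, KIF14 0.0016 ± 0.51 and the scaffold ANLN 0.025 ± 0.35.

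The 3 genes of anaphase onset had a median log2 fold change of 0.65, and 2 of them were among the 3 members whose groups did not overlap. CDC20 (chromosome 1, 43358955 to 43363203, plus strand), the activator of the anaphase-promoting complex in mitosis, was at 146, 109 and 109 CPM in knockdown and 95.9, 74.1 and 61.9 CPM in control libraries. On this scale the lowest knockdown library exceeded the highest control, at 121 ± 21.1 against 77.3 ± 17.2 CPM (SD, n = 3). The log2 fold change was 0.65 ± 0.21 with the lowest adjusted p of the 34 (adjusted p = 0.225 from edgeR), and 0.50 to 0.84 with 1 library left out. PTTG1 (chromosome 5, 160421822 to 160428744, plus strand), which encodes securin, the inhibitor of separase, was at 235, 140.3 and 139 CPM against 120.4, 105 and 94.5 CPM. Its groups did not overlap either (0.68 ± 0.23, adjusted p = 0.235 from edgeR, and 0.39 to 0.83 with 1 library left out). The groups of CDC20 and PTTG1 overlapped with library size alone, and those of CDC20 also with the GC trend removed. UBE2C, the ubiquitin-conjugating enzyme of the complex, had 0.57 ± 0.28, and 0.27 without knockdown replicate 1.

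In both genes used as general proliferation markers the groups overlapped. MKI67 (chromosome 10, 128096659 to 128126385, minus strand), which encodes the Ki-67 antigen coating mitotic chromosomes, was at 229.7, 183 and 70.7 CPM in knockdown and 157, 79.5 and 99.9 CPM in control libraries. Knockdown replicates 1 and 2 were above every control and replicate 3 below every control (0.53 ± 0.41, and 0.18 without knockdown replicate 1). TOP2A (chromosome 17, 40388516 to 40417950, minus strand), the topoisomerase that untangles sister chromatids, was at 136, 142 and 62.99 CPM against 175, 80.6 and 97.8 CPM. Its highest library was control replicate 1 (−0.051 ± 0.36, and −0.26 to 0.35 with 1 library left out).

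**Figure D3:**
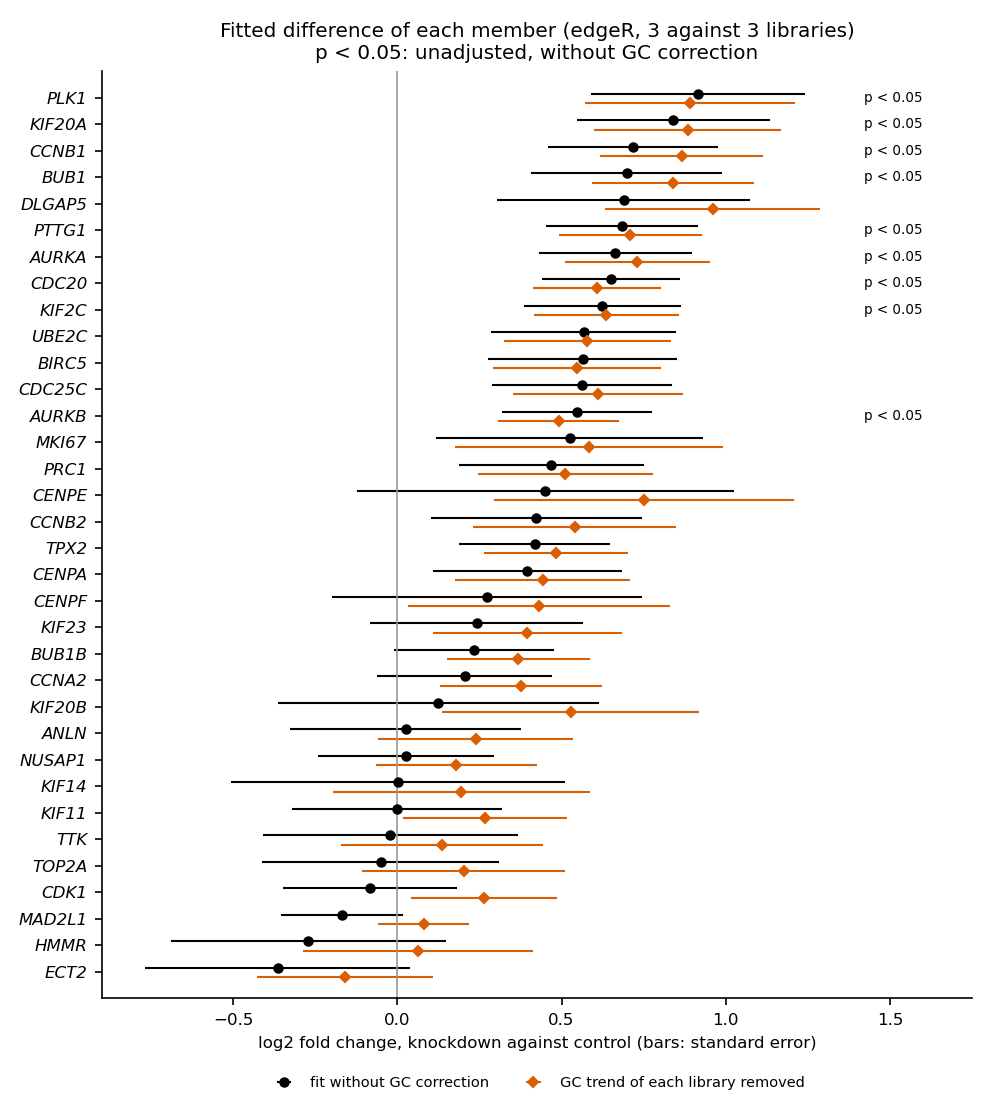
Log2 fold change of each member, knockdown against control, with its standard error, sorted by the fit without GC correction (circles) and beside the fit with the GC trend of each library taken out (diamonds). The circles run from −0.36 for ECT2 to 0.92 for PLK1, and 33 of 34 diamonds lie above 0.

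How far a member stood from the controls in knockdown replicates 1 and 3 went with the base composition and the length of its transcript. GC content, taken from the longest GENCODE 29 transcript, ran from 34.2% for KIF20B to 57.9% for CDC20. Across the 34 genes, Spearman's rho between GC content and the log2 difference from the control mean was 0.79, −0.26 and 0.89 for knockdown replicates 1 to 3, and −0.09, 0.63 and −0.55 for control replicates 1 to 3. Genes of one library share its preparation and are not independent, and the same relation over 16294 tested genes had rho of 0.33, −0.22, 0.50, 0.02, 0.27 and −0.31. With transcript length in place of GC content, rho across the 34 genes was −0.44, 0.49 and −0.72 for the knockdown and 0.19, −0.67 and 0.66 for the control replicates, larger in size than with GC content in knockdown replicate 2 and all 3 controls. Length and GC content were themselves related (rho −0.51 across the 34 genes and −0.22 over all genes tested), and their separate parts were not tested. In knockdown replicate 3 the 11 members lowest in GC (34.2% to 40.0%), among them CENPE, KIF20B, KIF14 and TOP2A, had a median of −0.83, where the 2938 tested genes of such or lower GC content had −0.59. In the same library the 12 members highest in GC (47.6% to 57.9%), among them CDC20, PLK1 and AURKB, had a median of 0.38, against 0.28 for the 8705 tested genes of such or higher GC content. In knockdown replicate 1 the same 11 members had a median of 0.22 against −0.47 for those genes, and the same 12 members 1.07 against 0.14. Both sets of members thus lay above those genes in replicate 1. In replicate 3 the 11 members lay below them and the 12 members above. Of the 9 called members, 0 were among the 11 lowest in GC, 3 among the middle 11 and 6 among the highest 12. Over all tested genes split at the same GC contents, 1.16%, 5.1% and 12.2% were called higher, and the median log2 fold changes were −0.26, −0.07 and 0.14, so both sets ran the same way. The part of base composition in the differences between the groups was not tested beyond the fit that follows.

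**Figure D4:**
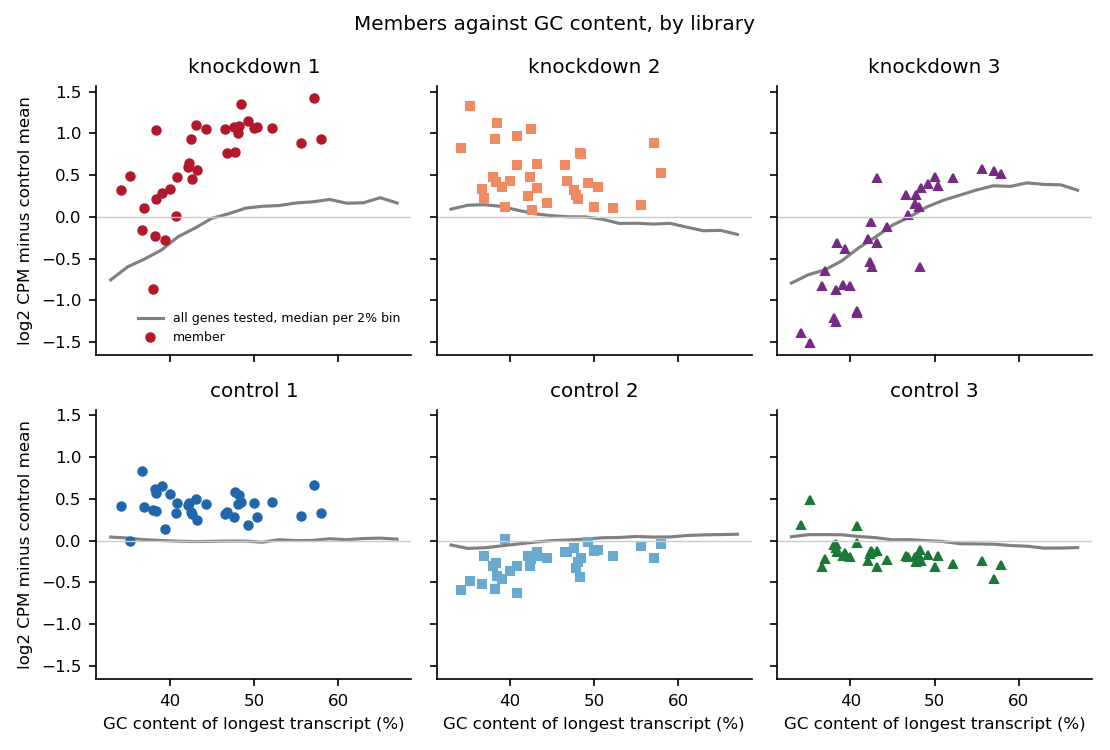
One panel per library, with the GC content of each member's longest transcript in percent on the x axis and its log2 CPM minus the control mean on the y axis; the grey line is the median of all tested genes in bins of 2%. In knockdown replicates 1 and 3 members of higher GC content lie higher (rho 0.79 and 0.89), and the line slopes the same way.

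With each library's trend over GC content removed, more of the members lay higher in knockdown. A log2 fold change above 0 was then found for 33 of 34 members, ECT2 being the exception at −0.16 ± 0.27, where 58.7% of all genes were positive. The members' median was 0.50 against 0.08 over all genes, a distance of 0.42 as in the fit without the correction. The unadjusted threshold then called 12 members higher, against 14% of all genes, and 9 of the 12 were the genes called before; UBE2C, CDC25C and DLGAP5 were added. Values in this fit were 0.96 ± 0.33 for DLGAP5, 0.89 ± 0.32 for PLK1, 0.88 ± 0.28 for KIF20A, 0.87 ± 0.25 for CCNB1 and 0.84 ± 0.25 for BUB1. CDK1 was at 0.26 ± 0.22 and TOP2A at 0.20 ± 0.31. The members' log2 fold changes still rose with GC content, with Spearman's rho at 0.51, and 0.70 in the fit without the correction. Over all genes rho was 0.05, and 0.31 without the correction. The 11 members lowest in GC, the middle 11 and the highest 12 had medians of 0.24, 0.43 and 0.60 in the corrected fit. Of these sets 1, 3 and 8 members were called higher. The groups did not overlap for AURKB, CCNB1 and PTTG1, against 17.6% of all genes tested. The library medians became 0.85, 0.45 and 0.04 for the knockdown replicates, with the controls at 0.39, −0.18 and −0.19, so that knockdown replicate 3 no longer had the lowest median but control replicate 1 still lay above it. Again 0 members passed the adjusted threshold in edgeR.

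Mitotic genes outside the 34 had their 3 highest library medians in the same libraries as the members. The medians stood at 0.68, 0.39 and −0.11 for knockdown replicates 1 to 3, with control replicates 1 to 3 at 0.30, −0.16 and −0.11. Control replicate 2 was the lowest here, whereas knockdown replicate 3 was the lowest for the 34 members. Of 64 such genes, all tested, the log2 fold change was above 0 for 53 (49.9% of all genes tested were), and its median was 0.29. At an unadjusted p under 0.05, 15 were higher (8.17% of all genes tested were) and 1 was lower. PSRC1, a spindle protein, was at 106, 71.2 and 60.5 CPM in knockdown and 46.8, 33.1 and 26.6 CPM in control libraries. All its knockdown values exceeded all control values (1.16 ± 0.27, adjusted p = 0.170 from edgeR). GTSE1, a microtubule-binding protein of G2 and M phase, had 0.77 ± 0.24. UBE2S, which extends ubiquitin chains for the anaphase-promoting complex, had 0.66 ± 0.21.

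Among S phase genes 1 library stood out. Of 39 tested, 31 had a log2 fold change above 0, and the median was 0.24. By the same rule of an unadjusted p, 3 were called higher and 0 lower. Over all genes tested 8.17% were called higher and 7.36% lower, so 3 of 39 is no larger a share. Their library medians were 0.56, 0.0055 and 0.06 in knockdown and 0.09, −0.03 and −0.08 in control libraries, with knockdown replicate 1 above the rest. The replicative helicase subunit MCM5 was at 0.53 ± 0.22, the clamp loader subunit RFC2 at 0.40 ± 0.17 and the DNA ligase gene LIG1 at 0.75 ± 0.33. Without knockdown replicate 1 these were 0.28, 0.26 and 0.28, and the list median was 0.04. Whether the mitotic and S phase lists differ was not tested.

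Of 16 MuvB subunits, their partners and NF-Y subunits, which regulate the mitotic genes, 0 were called in either direction at an unadjusted p under 0.05 in edgeR, and 0 at the adjusted threshold. Their median log2 fold change was −0.05. For 2 of the 16, NFYB and TFDP2, all knockdown libraries lay below all controls (−0.61 ± 0.27 and −0.23 ± 0.15), where 11.2% of all genes tested did so. With the GC trend removed the differences of these genes were −0.18 and −0.17. FOXM1, an activator of late cell cycle genes, was at 203, 129.8 and 142 CPM in knockdown and 147, 102 and 96.3 CPM in control libraries. Control replicate 1 lay above knockdown replicates 2 and 3, as for CENPA (0.46 ± 0.23). MYBL2, which encodes B-MYB, was at 163, 57.7 and 88.9 against 74.6, 79.6 and 64.5 CPM, and its difference of 0.50 ± 0.33 was 0.012 without knockdown replicate 1. The MuvB core subunit LIN9 was at 10.9, 17.2 and 6.17 against 11.8, 11.2 and 13.5 CPM (−0.095 ± 0.34).

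Subunits of the anaphase-promoting complex had a median log2 fold change of 0.10 over 15 genes. At an unadjusted p under 0.05, 1 was higher and 1 lower, where 8.17% of all genes tested were higher and 7.36% lower. ANAPC7 was at 127, 142 and 119 CPM in knockdown and 84.1, 95.7 and 96.4 CPM in control libraries (0.49 ± 0.15, adjusted p = 0.219 from edgeR). The small subunit ANAPC13 had the opposite sign, at 52.3, 62.02 and 60.1 CPM against 97.3, 99.98 and 102 CPM (−0.78 ± 0.15, adjusted p = 0.149 from edgeR). In both genes the groups did not overlap, where 11.3% of all genes tested were apart and higher and 11.2% apart and lower.

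**Figure D5:**
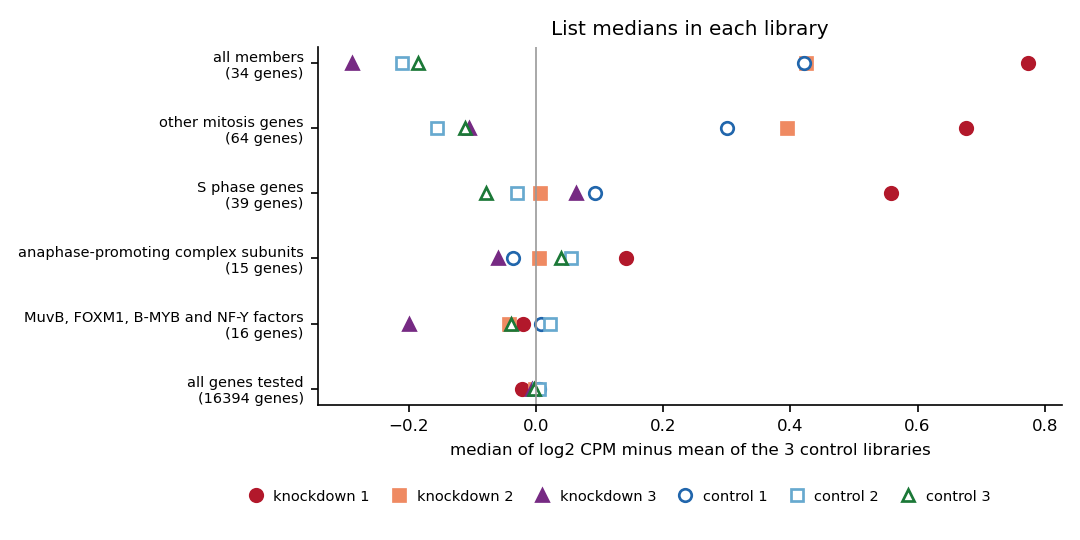
Median over each gene list of log2 CPM minus the mean of the 3 control libraries, 1 point per library; filled symbols are knockdown and open symbols control. For the 34 members and the 64 other mitosis genes control replicate 1 lies beside knockdown replicate 2, while the medians of the 16 regulators lie between −0.20 and 0.02.

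Total counts were 34639090 to 42425310 per library. Of 8 genes fixed as markers of MDA-MB-231, 7 had at least 8653 reads in each library, and SPARC had 7 to 19 reads. Their median log2 fold change was 0.44, about that of the 34 members. At the unadjusted threshold 3 were higher, VIM at 0.65, MSN at 0.57 and AXL at 0.52, where 8.17% of all genes tested were. Groups were apart for VIM and MSN, where 11.3% of all genes tested were apart and higher. The part of these markers in the members' values was not tested. The 12 luminal markers summed to 569 to 654 CPM in knockdown and 568 to 714 CPM in control libraries (CPM of total counts), with KRT8, KRT18, KRT19 and XBP1 above the rest and the hormone receptor ESR1 at 12 to 25 reads. Among the luminal markers GATA3 was higher (0.48) and ERBB3 lower (−0.58) in knockdown at the unadjusted threshold, with groups apart in both. Over all genes tested 7.36% were lower at that threshold. Of 12 blood markers 9 were in the table, and they summed to 0.965 to 1.56 and 1.59 to 1.79 CPM. The 12 fibroblast and endothelial markers summed to 18.2 to 28.5 and 16.7 to 30.3 CPM, with CDH5, PDGFRA and POSTN at 0 to 2 reads. Others of that list were present, LUM at 202 to 494, TAGLN at 128 to 450 and PECAM1 at 35 to 146 reads. PECAM1 was higher (1.19) and DCN lower (−2.23) in knockdown at the unadjusted threshold, with groups apart in both; their part in the members' values was not tested.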

How the data were processed

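RNA was sequenced from 3 CALR knockdown and 3 control libraries of MDA-MB-231 cells. The authors deposited whole-number read counts per gene and FPKM values rounded to 2 decimals; the submitters' processing notes list FastQC 0.9.5 and TopHat2 with the build GRCh38. How reads were counted, on which strand and with which gene models is not given in the sources used here. Genes were kept with filterByExpr of edgeR 4.0.16 (R 4.3.3), scaled with TMM factors and tested with the quasi-likelihood F-test without covariates, adjusting by Benjamini-Hochberg over the 16394 genes tested (threshold 0.05). The standard error of a log2 fold change is its size over the root of the F statistic. CPM uses TMM-scaled sizes; log2 CPM has a prior count of 2. The fit was run on simulated counts with changes larger than those of the members, the same dispersion for all genes and no GC trend. That run checks the code and not the power of the test in these libraries.

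Members and gene lists were chosen with earlier results of these data known. All 34 members are named, with values in every library for 12 fixed genes, every member at an unadjusted p under 0.05, and the 2 lowest and 2 highest members; of other lists, CALR, FOXM1, MYBL2, LIN9 and the 3 smallest unadjusted p under 0.05 per list. Single-library values printed for further members, and the genes CDKN1A, CCNG1, GADD45A, BTG1, CDKN1C, NFYB and TFDP2, were chosen after their values were seen. Alternatives were DESeq2 1.42.0 and its size factors, library size alone, limma-voom and limma 3.58.1 on log2(FPKM + 1) and log2(FPKM + 0.1) (FPKM of at least 1 in 3 libraries, or no filter), other count filters, leaving out each library, the replicate block, and a spline (5 df) over GC content of each library as an offset. Coordinates and overlaps are from GENCODE 29, counted from 1. Promoters are from RefSeq; AURKA, BIRC5, TPX2, TTK and UBE2C have no entry in the table used.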

Additional observations from a re-analysis of the deposited data

How the results depend on the processing

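The count of 9 members at an unadjusted p under 0.05 was 5 with library size alone (4.45% of all genes were called higher), 17 without a low-count filter (6.13%; 7 members past the adjusted threshold in edgeR), 5 on log2(FPKM + 1) and 5 on log2(FPKM + 0.1) (5.50% each), and 1 on log2(FPKM + 1) without a filter, where 2.98% of all genes were called and 1 of 34 is no larger a share. With 1 library left out it lay between 0 and 15, with 0 to 3 members past the adjusted threshold and 0 to 1 lower. The 3 passed without knockdown replicate 2, where 2604 of the 16783 genes tested did, so theirs is no larger a share. Over all genes, 530 passed the adjusted threshold in DESeq2 (0 members), 988 without a low-count filter, 5 on unfiltered FPKM and 13 with the GC trend removed, and 0 to 2604 with 1 library left out. Library size alone moved the median of all genes to −0.13 and log2(FPKM + 0.1) to −0.11; the members' median relative to these was 0.43 and 0.37.

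Single members changed sign as follows. With the GC trend removed CDK1 was at 0.26, TTK 0.14, MAD2L1 0.080, HMMR 0.062, TOP2A 0.20 and KIF11 0.27. KIF11 was at 0.018 with DESeq2 size factors, 0.018 in DESeq2 and 0.014 without a low-count filter. CENPF was at −0.020 on log2(FPKM + 0.1). With limma-voom the values were KIF20B −0.081, NUSAP1 −0.020, KIF14 −0.18 and ANLN −0.018, and with the replicate block KIF20B −0.076, NUSAP1 −0.018, KIF14 −0.22 and ANLN −0.023. With library size alone NUSAP1 was at −0.091, KIF14 −0.064 and ANLN −0.071, and with CPM of at least 1 in all 6 libraries NUSAP1 −0.013, KIF14 −0.028 and ANLN −0.010. On log2(FPKM + 1), with or without the filter, they were KIF20B −0.078, NUSAP1 −0.14, KIF14 −0.13 and ANLN −0.13, and on log2(FPKM + 0.1) KIF20B −0.18, NUSAP1 −0.14, KIF14 −0.28 and ANLN −0.14. With 1 library left out the ranges were −0.24 to 0.16 for CDK1, −0.016 to 0.46 for CCNA2, −0.47 to 0.34 for TTK, −0.25 to 0.92 for CENPE, −0.18 to 0.69 for CENPF, −0.25 to 0.32 for KIF11, −0.36 to 0.55 for KIF20B, −0.23 to 0.28 for NUSAP1, −0.58 to 0.28 for HMMR, −0.73 to 0.40 for KIF14, −0.18 to 0.36 for ANLN and −0.26 to 0.35 for TOP2A. The cause was not tested. The other single-member values kept their sign.

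Knockdown and control libraries share replicate numbers, but the deviations of same-numbered libraries from their group means correlated at 0.20, −0.12 and −0.22, and the labels name no shared batch, so the numbers were not taken to pair them. With the replicate block 12 members were higher at an unadjusted p under 0.05 in place of 9, where 5.98% of all genes were in place of 8.17%, and knockdown replicates 2 and 3 correlated best with another number. Reads were fewest for HMMR, CENPE, KIF14 and KIF20B, so single-library values are least precise for these 4.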

Other observations

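Genes of cell cycle arrest gave a further view of the 6 libraries. Of 11 listed arrest and quiescence genes, 1 was higher and 1 lower in knockdown by the unadjusted threshold, and the median log2 fold change was −0.19. Over all genes tested 8.17% were higher and 7.36% lower by that threshold. The CDK4 and CDK6 inhibitor gene CDKN2C was at 60.2, 35.2 and 32.8 CPM in knockdown and 29.9, 26.3 and 23.2 CPM in control libraries, replicates 1 to 3 in order (0.69 ± 0.26, adjusted p = 0.266 from edgeR, and 0.37 without knockdown replicate 1). CDKN2B, another inhibitor of the same kinases, had 1, 0 and 59 reads in knockdown and 303, 106 and 129 in control libraries. CDKN1A, which encodes the CDK inhibitor p21 and was picked after its values were seen, was at 162, 158 and 516 CPM in knockdown and 142, 281 and 255 CPM in control libraries (0.31 ± 0.46). The 3 libraries with the lowest CDKN1A, control replicate 1 and knockdown replicates 1 and 2, were those with positive medians of the 34 mitotic genes, and the other 3, knockdown replicate 3 highest, were those with negative medians. With the GC trend removed from the mitotic genes, knockdown replicates 1 and 2 and control replicate 1 had medians of 0.85, 0.45 and 0.39. Knockdown replicate 3 and control replicates 2 and 3 were at 0.039, −0.18 and −0.19. The match with the sign then no longer held for knockdown replicate 3, the library with the highest CDKN1A. The 3 libraries lowest in CDKN1A still had the 3 highest medians. The CDKN1A values were not corrected in this way. CCNG1, another gene of the list picked after its values were seen, was instead highest in the 3 libraries lowest in CDKN1A. Its values were 39.0, 55.8 and 33.3 CPM in knockdown and 44.1, 35.3 and 34.7 CPM in control libraries. The part of either gene in the mitotic genes' levels was not tested.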
